A study of Mus musculus with 3 samples.

Results

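Purine nucleotides and nucleosides that reach the gut lumen can be taken apart and taken back up by enterocytes, and 8 mouse genes of that route are described here: Enpp3, Nt5e, Slc28a2, Slc28a1, Slc29a1, Ada, Pnp and Xdh. They were chosen by name, as symbols in the gene list of the count tables, and all 8 of the 31053 listed genes were found. Earlier results of these data were known when these genes were picked. Counts set beside all genes thus describe the 8 genes and do not test them. Their transcripts, counted as unique molecular identifiers (UMIs), were followed by cell class, by position along the villus and by segment of the small intestine. The cells came from wildtype (WT) C57BL/6N mice, all of them male and 12 weeks old. Cells of 3 mice were pooled, sorted as negative for propidium iodide and made into 1 droplet library each for the duodenum, the jejunum and the ileum, so that the libraries share their animals and no treatment or genotype was compared. The epithelium was taken off with EDTA and DTT, and immune cells that lie within it were kept. Droplets were processed with the 3′ v3 chemistry, so that most UMIs come from the 3′ end of a transcript.

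In the lumen and at the brush border, ectoenzymes remove phosphates from nucleotides until a nucleoside is left, which sodium-coupled carriers bring into the cell. Inside, adenosine is deaminated to inosine, inosine is split into hypoxanthine and a sugar phosphate, and the base is either returned to nucleotides or oxidised to xanthine and uric acid. Enterocytes arise from stem cells of the crypt, move up the villus and are shed at its tip. The villus tip is known for breakdown of extracellular ATP and AMP to adenosine.

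On GRCm38, the annotation places Ada on the minus strand of chromosome 2 (163726584 to 163750239), Nt5e on the plus strand of chromosome 9 (88327197 to 88372092) and Slc28a2 on the plus strand of chromosome 2 (122426477 to 122461137). Enpp3 lies on the minus strand of chromosome 10 (24772406 to 24842823), Xdh on that of chromosome 17 (73883895 to 73950196), Slc29a1 on the same strand of chromosome 17 (45585200 to 45599606), Slc28a1 on the plus strand of chromosome 7 (81114799 to 81170416) and Pnp on that of chromosome 14 (50931082 to 50965237). On the same strand, Slc28a2 overlaps the annotated pseudogene Gm14086, Xdh the pseudogene CT025731.2 and Pnp the coding genes Gm49342 and Pnp2. How UMIs in such overlaps were assigned was not examined. The values are 1 number per gene and do not tell exons or UTRs apart.

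Of 27235 barcodes, 16686 were kept under limits on UMIs, genes and mitochondrial UMIs. Kept cells of the duodenum held 57079945 UMIs, those of the jejunum 58186946 and those of the ileum 66148396, with a median of 12424, 11737 and 5536 UMIs per cell. Clusters named enterocyte by 12 marker genes held 12651 of them, with 3725, 3790 and 5136 per library in this order. The limit of 40% mitochondrial UMIs removed 5129, 3689 and 1291 barcodes of the 3 libraries, and the median share in kept cells was 27.1%, 27.2% and 11.1%. Each pair of libraries shared between 4 and 12 barcodes of kept cells. A cluster of 1726 enterocytes was led by haemoglobin genes and a cluster of 1272 by pancreatic enzyme genes. Since all libraries come from 1 pool of mice, p-values measure only the spread between these libraries.

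The position of a cell was not measured. Enterocytes of each library were ranked by RNA of tip landmark genes (Apoa4, Pkib, Creb3l3, Egfr, Klf4 and Krt20) minus bottom landmark genes (Reg3g, Reg3b, Lypd8, Nlrp6, Il18, Ccl25 and Gpx2), with no purine gene among them, and cut into 5 zones from 1 (bottom) to 5 (tip). Of the check genes kept out of that score, Lama3 and Lamb3 were higher and Dmbt1, Stmn1 and Hmgb2 lower in zone 5 than in zone 1 of each library. Lama3, a laminin gene of the tip, stood at 0.0251 UMIs per 10000 UMIs in zone 1 and 0.665 in zone 5 of the duodenum, at 0.0616 and 1.97 in the jejunum and at 0.183 and 4.61 in the ileum, while Dmbt1, a gene of the lower villus, fell from 3.60 to 0.0822, from 1.01 to 0.0197 and from 0.749 to 0.0255. Olfm4, a stem cell gene, went the other way in the duodenum (0.0236 to 0.0355) and the ileum (0.0364 to 0.0568), at low levels, and from 0.0262 to 0.0186 in the jejunum. Pkib was almost without UMIs and hence told little. Within each library, between 11.4 and 13.4% of enterocytes had a rank close to a boundary of 2 zones.

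Ada, Nt5e, Slc28a2 and Enpp3 rose from the bottom to the tip by a log2 fold change between 6.69 and 8.41, and they rose at every step between neighbouring zones in each of the 3 libraries. Xdh and Pnp rose as well, by 1.74 and 0.98. Slc28a1 did not pass the test, and Slc29a1 had too few UMIs in enterocytes to be tested. In this test 6 of the 7 tested members were thus higher at the tip and 0 lower, where 33.1% of all 11208 tested genes were higher and 37.4% lower (70.5% either way). The median over the 7 members was 6.69 on the log2 scale, and that over all tested genes was -0.09. Earlier results of these data were known when the members were picked, so this comparison with all genes describes them and is no test.

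**Figure D1:**
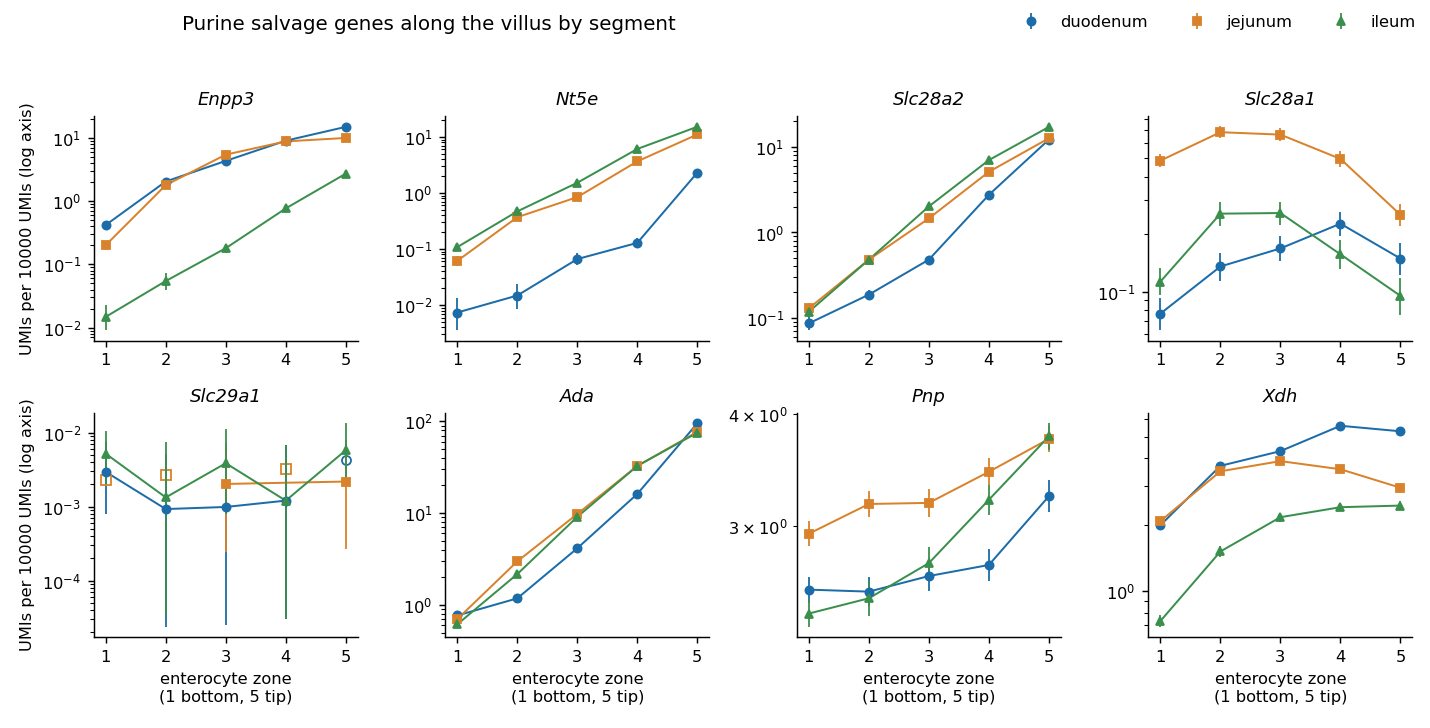
UMIs per 10000 UMIs (log axis, a separate range in each panel) of the 8 genes in zones 1 (bottom) to 5 (tip) of enterocytes, with 1 line per library and exact 95% Poisson intervals as bars. Open symbols stand for 0 UMIs and are drawn at the level of 3 UMIs. Enpp3, Nt5e, Slc28a2 and Ada climb through all zones in the 3 libraries, whereas Slc28a1 peaks in zone 4 of the duodenum, zone 2 of the jejunum and zone 3 of the ileum.

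Enpp3 codes for an ectonucleotidase that cuts extracellular nucleotides down to monophosphates. Its level in the duodenum was 0.420, 2.04, 4.32, 9.0 and 14.9 UMIs per 10000 UMIs from zone 1 to zone 5. In the jejunum the zones held 0.202, 1.79, 5.42, 8.78 and 9.95. In the ileum they held 0.0148, 0.0546, 0.180, 0.766 and 2.72. Each ileal zone lay below the same zone of both other libraries, and the bottom zone of the ileum rested on 20 UMIs. Tip cells held 35.5 times the level of bottom cells in the duodenum, 49.3 times in the jejunum and 183 times in the ileum. The fit over the libraries, by edgeR's quasi-likelihood test (p-values adjusted after Benjamini and Hochberg across 11208 genes), gave a log2 fold change of 6.69 (SE 0.65, adjusted p = 1.56e-06). Without the ileum it was 5.82 and without the duodenum 7.49.

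Nt5e codes for ecto-5′-nucleotidase (CD73), which turns AMP into adenosine at the cell surface. The duodenum held 0.00737, 0.0148, 0.0663, 0.129 and 2.31 UMIs per 10000 UMIs from bottom to tip. The jejunum held 0.0616, 0.370, 0.845, 3.67 and 11.1, and the ileum 0.108, 0.470, 1.53, 6.11 and 15.2. Nt5e was lowest in the duodenum and highest in the ileum in each of the 5 zones, and in the duodenum the tip zone held 1630 of its 1830 enterocyte UMIs. The same test gave 8.41 (SE 0.56, adjusted p = 1.30e-07 by edgeR's quasi-likelihood test). The tip to bottom ratio of the duodenum, 313, rests on 10 UMIs at the bottom, and the ratios of the jejunum and the ileum were 180 and 140.

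Slc28a2 codes for the sodium-coupled carrier of purine nucleosides. From bottom to tip it stood at 0.0863, 0.187, 0.481, 2.76 and 12.2 UMIs per 10000 UMIs in the duodenum. The jejunum had 0.129, 0.480, 1.46, 5.14 and 12.7, and the ileum 0.118, 0.481, 2.02, 7.04 and 17.2. The rise was 142-fold, 98.1-fold and 146-fold in this order. The duodenum was the lowest in each zone, and its gap to the others was widest in the middle of the villus. The log2 fold change was 7.52 (SE 0.36, adjusted p = 4.21e-08 by edgeR's quasi-likelihood test).

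Slc28a1, whose product is the related carrier that prefers pyrimidine nucleosides, had another course. It reached 0.0767, 0.135, 0.168, 0.227 and 0.149 UMIs per 10000 UMIs in the duodenum. The jejunum had 0.484, 0.682, 0.663, 0.495 and 0.252, and the ileum 0.113, 0.256, 0.258, 0.157 and 0.0950. The peak lay between zones 2 and 4, and the jejunum was above both other libraries in every zone. The fit gave 0.40 (SE 0.27, adjusted p = 0.199 by edgeR's quasi-likelihood test), and its sign turned to -0.13 where libraries were scaled to their totals alone and to -0.00995 without the duodenum, while it came to 0.88 without the jejunum. Tip cells of the duodenum stood above bottom cells by a log2 ratio of 0.96 (95% interval from counting error 0.57 to 1.35), those of the jejunum below them at -0.94 (-1.16 to -0.72), and the ileum gave -0.25 (-0.64 to 0.14).

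Slc29a1, which codes for an equilibrative nucleoside carrier of many tissues, gave 28 UMIs in all 12651 enterocytes. Tip zones of the duodenum, the jejunum and the ileum gave 0, 2 and 5 of them, and bottom zones 4, 0 and 7. A count of 0 allows up to 0.00425 UMIs per 10000 UMIs in the tip zone of the duodenum and 0.00231 in the bottom zone of the jejunum. A change along the villus was not detectable at this depth.

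Ada codes for adenosine deaminase. In the duodenum it stood at 0.768, 1.18, 4.15, 16.2 and 95 UMIs per 10000 UMIs from zone 1 to zone 5. The jejunum had 0.701, 2.98, 9.79, 32.7 and 76.7, and the ileum 0.615, 2.17, 9.11, 32.7 and 75.2. The tip to bottom ratio was 124, 109 and 122. Between zones 2 and 4 the duodenum lay below the other libraries, and at the tip it lay above them. The log2 fold change was 7.39 (SE 0.43, adjusted p = 7.87e-08 by edgeR's quasi-likelihood test).

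Pnp, purine nucleoside phosphorylase, splits inosine and guanosine. Its level went from 2.55 at the bottom to 3.24 UMIs per 10000 UMIs at the tip in the duodenum, from 2.94 to 3.75 in the jejunum and from 2.39 to 3.77 in the ileum. These steps are small beside those of Ada, with ratios of 1.27, 1.28 and 1.58. The fit, which also corrects for the makeup of the RNA, gave a log2 fold change of 0.98 (SE 0.14, adjusted p = 3.73e-05 by edgeR's quasi-likelihood test), and 0.45 where libraries were scaled to their totals alone. The annotated span of Pnp includes its near-identical neighbour Pnp2, so how UMIs were divided between the pair is uncertain. Pnp2 itself rose by 1.11 (SE 0.13, adjusted p = 6.77e-06 by edgeR's quasi-likelihood test).

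Xdh, xanthine dehydrogenase, forms xanthine and uric acid. In the duodenum it was at 1.99, 3.70, 4.31, 5.62 and 5.31 UMIs per 10000 UMIs from bottom to tip. The jejunum had 2.08, 3.50, 3.89, 3.57 and 2.94, and the ileum 0.733, 1.51, 2.17, 2.40 and 2.44. Most of the rise fell into the lower zones, and the peak lay in zone 4 of the duodenum, zone 3 of the jejunum and zone 5 of the ileum. The log2 fold change between tip and bottom was 1.74 (SE 0.20, adjusted p = 5.53e-06 by edgeR's quasi-likelihood test).

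**Figure D2:**
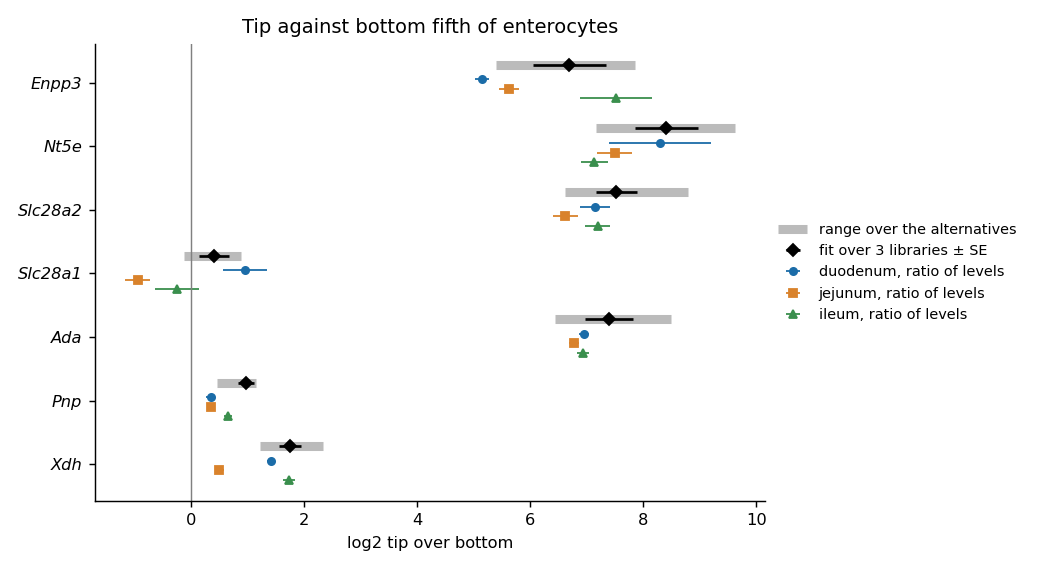
Log2 ratio of tip to bottom zone for the 7 tested genes. Black diamonds give the fit over the 3 libraries with its SE, grey bars the range of that fit over the alternative settings, and coloured symbols the ratio of UMIs per 10000 UMIs in each library with 95% counting intervals. Ada, Slc28a2, Nt5e and Enpp3 lie above 5 in every library, and Slc28a1 lies on both sides of 0.

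The 6 calls were kept under each of the 21 alternatives run for each of these genes, with the largest adjusted p, 0.0239, for Xdh in edgeR without the library as a block. Scaled to totals alone, the median of all tested genes moved by -0.53, and 27.3% of the calls were higher at the tip in place of 47.0%. Markers of T cells, summed over 11 genes, went from 0.0221 UMIs per 10000 UMIs at the bottom to 0.109 at the tip of the duodenum, from 0.0816 to 0.155 in the jejunum and from 0.588 to 0.482 in the ileum. Depth fell toward the tip in the duodenum, from a median of 16921 UMIs per cell in zone 1 to 8837 in zone 5, and in the jejunum from 14837.5 to 11640.5, while the ileum had 8167.5 and 7272. The median share of mitochondrial UMIs went from 24.4 to 28.3%, from 28.4 to 25.1% and from 16.9 to 8.95%. Their part in the result was not tested, but the 6 members kept their calls with each cell thinned to 2000 UMIs, with cells of at most 20% mitochondrial UMIs and without the clusters led by haemoglobin or pancreatic enzyme genes.

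In single tip cells, Ada, Nt5e and Slc28a2 were found together in a part of the cells. With each enterocyte thinned to 2000 UMIs and shallower cells left out, Ada, Nt5e and Slc28a2 were all found in 126 of 737 tip cells of the duodenum (17.1%), 356 of 754 of the jejunum (47.2%) and 567 of 1008 of the ileum (56.25%). The exact 95% binomial intervals were 14.4 to 20.0%, 43.6 to 50.8% and 53.1 to 59.3%. In the bottom zone this was 0 of 724, 3 of 738 and 2 of 992 cells, where 0 of 724 allows a share of up to 0.414%. Of the 745, 758 and 1027 tip cells and the 745, 758 and 1028 bottom cells, those not counted here were too shallow. The product of the 3 separate shares would give 11%, 38.5% and 43.5% at the tip, below the joint share in each library. In zone 3 of the ileum the joint share was 7.13% and the product 0.576%. Cells of 1 zone still differ in rank, and all 3 genes climb with it. The comparison therefore does not tell a link between the genes apart from a shared rank. Nt5e was found in 18.0% of duodenal tip cells, against 60.2% in the jejunum and 69.1% in the ileum, whereas Ada was found in 92.9, 98.1 and 92.8% and Slc28a2 in 65.7, 65.1 and 67.9%.

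At an equal depth of 800 UMIs, Ada was found in 87.5, 90.9 and 85.6% of tip cells and in 6.04, 6.46 and 4.47% of bottom cells of the duodenum, the jejunum and the ileum. Without thinning these shares were 97.9, 99.2 and 96.6% at the tip and 57.3, 55.5 and 32.6% at the bottom. T cells numbered 35, 108 and 1092, at a median depth of 4089, 4631 and 4243.5 UMIs. They showed Ada in 11.4, 12.0 and 6.68% of cells at that equal depth. The share of bottom enterocytes with Ada was thus below that of T cells in each library, though duodenal shares of T cells rest on 35 cells and the order was not tested. T cells may hold Ada RNA of their own, and the share at the bottom is not told apart from free RNA. For Slc28a2, bottom cells reached 1.34, 1.19 and 1.17% and T cells 8.57, 2.78 and 5.04%, with 51.1, 49.1 and 56.9% at the tip. Nt5e was found at this depth in 10.3% (95% interval 8.24 to 12.7), 43.4% (39.8 to 47.0) and 51.6% (48.5 to 54.7) of tip cells.

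The clusters of enterocytes were formed without the 8 members and without the other purine genes listed here among the variable genes. Even so, the largest enterocyte cluster, of 2695 cells, had Nt5e, Slc28a2 and Ada as its leading genes by fold, which is a description of that cluster and no test. Across the 15 sums of a library and a zone, centred within each library, the gene most like Ada among 5820 genes was Slc28a2 (r = 0.998), followed by Ralgds (0.997) and Krt20 (0.995), the last a landmark of the zones. Slc28a1 came closest to Pin4 (0.980), Slc5a12 (0.972) and Naip5 (0.965). Those most like Nt5e were Nudt4 (0.995), Lama3 (0.993) and Gprc5a (0.992). Enpp3 came closest to Tnfsf13b (0.991), Cyp3a13 (0.990) and Slc39a9 (0.989), Xdh to Rfk, Uba7 and Optn (each 0.98) and Pnp to Crk, Kyat1 and Ndfip2 (each 0.98). These sums share libraries, cells and the ranking itself, so the values describe likeness of course and nothing more. Between members, r was 0.99 for Ada and Nt5e, 0.95 for Ada and Enpp3, 0.77 for Ada and Xdh and -0.08 for Ada and Slc28a1.

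The sequence before a start of transcription in RefSeq is shown for the 4 genes that rose together most, to let these windows be compared. The 250 bases are from RefSeq on GRCm38.p6, written 5′ to 3′ on the strand of the gene, with each CpG dinucleotide in capitals. The Ada window is chr2:163750240-163750489 on the minus strand, that of Nt5e chr9:88327359-88327608 on the plus strand, that of Slc28a2 chr2:122426185-122426434 on the plus strand and that of Enpp3 chr10:24836196-24836445 on the minus strand. The windows of Enpp3 and Nt5e lie inside the gene spans given above, so they precede a start within the span and not its outer end.
Ada: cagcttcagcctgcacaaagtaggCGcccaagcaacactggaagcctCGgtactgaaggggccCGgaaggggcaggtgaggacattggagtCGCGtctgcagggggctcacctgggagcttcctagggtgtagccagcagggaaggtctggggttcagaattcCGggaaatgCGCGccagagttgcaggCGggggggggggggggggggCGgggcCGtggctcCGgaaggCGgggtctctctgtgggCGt
Nt5e: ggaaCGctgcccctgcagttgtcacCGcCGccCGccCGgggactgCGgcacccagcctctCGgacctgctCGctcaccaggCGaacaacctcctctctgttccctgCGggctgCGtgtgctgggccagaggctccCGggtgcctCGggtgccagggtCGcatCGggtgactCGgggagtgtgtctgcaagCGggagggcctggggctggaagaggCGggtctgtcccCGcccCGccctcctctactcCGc
Slc28a2: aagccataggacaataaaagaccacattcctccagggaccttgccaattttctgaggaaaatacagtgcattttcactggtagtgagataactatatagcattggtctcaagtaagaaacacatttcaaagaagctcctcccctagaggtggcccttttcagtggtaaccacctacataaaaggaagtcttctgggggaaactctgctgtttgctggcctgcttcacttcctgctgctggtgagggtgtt
Enpp3: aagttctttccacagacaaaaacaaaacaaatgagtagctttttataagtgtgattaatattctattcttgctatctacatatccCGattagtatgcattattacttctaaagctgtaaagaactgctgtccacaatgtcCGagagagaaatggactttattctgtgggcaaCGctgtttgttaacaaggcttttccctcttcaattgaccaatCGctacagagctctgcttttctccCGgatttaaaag

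In CpG and in G or C, the windows of Ada and Nt5e lay above the median of all windows and those of Enpp3 and Slc28a2 below it. The Nt5e window had 21 CpG and 72.0% G or C and that of Ada 14 and 67.2%, whereas the Enpp3 window had 5 and 36.8% and the Slc28a2 window 0 and 45.2%. Over all 32851 windows of the table, the median was 6 CpG and 52.4%. Windows were found for 7 of the 8 members and searched on both strands for short motifs of factors that act in gut epithelium or in many cells. The HNF4 letters CAAAGTCCA stand in 0.384% of all windows, and the HNF1 letters GTTAAT are found in 6.43% of them. The CDX2 letters TTTATGG occur in 2.43% of all windows, and for the GATA factors TGATAA is present in 7.94% of them. The AP-1 letters TGANTCA, where N is any base, occur in 6.75% of windows, the cAMP response element TGACGTCA in 1.55% of them and the TATA box letters TATAAA in 12.4% of them. The only match among the members was TATAAA in Enpp3, on the opposite strand from 209 to 204 bases before the start, which says only that the other letters are not in these windows.

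Between cell classes, Ada, Slc28a2, Slc28a1, Pnp and Xdh were higher in enterocytes than in each of the 6 classes tested, and Slc29a1 was lower than in 5 of them. Levels were compared over the 3 libraries with UMIs summed per library and class. Of 8 members, 7 were higher in enterocytes than in ISC/proliferating cells, where 35.6% of 12591 genes were higher, and 1 was lower, where 24.7% were lower. Against goblet cells 6 were higher and 1 lower (24.2 and 12% of all genes), against tuft cells 7 and 0 (28.5 and 15.7%), against enteroendocrine cells (EECs) 6 and 1 (30.2 and 21%), against T cells 7 and 1 (35.4 and 25.4%) and against B cells 7 and 1 (35.6 and 25.3%). The calls of Nt5e over T cells and B cells depended on the processing. The median over the members lay between 3.02 and 4.69 on the log2 scale, that over all genes between 0.28 and 0.36. The lower member was Slc29a1 each time. Scaled to totals alone, the median of all genes moved by between -0.94 and -0.08, and the share of higher calls went from between 58.2 and 66.9% to between 23.4 and 62.5%, so a fold of a single gene also depends on the scaling. Among the members only Nt5e over EECs changed its sign there.

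**Figure D3:**
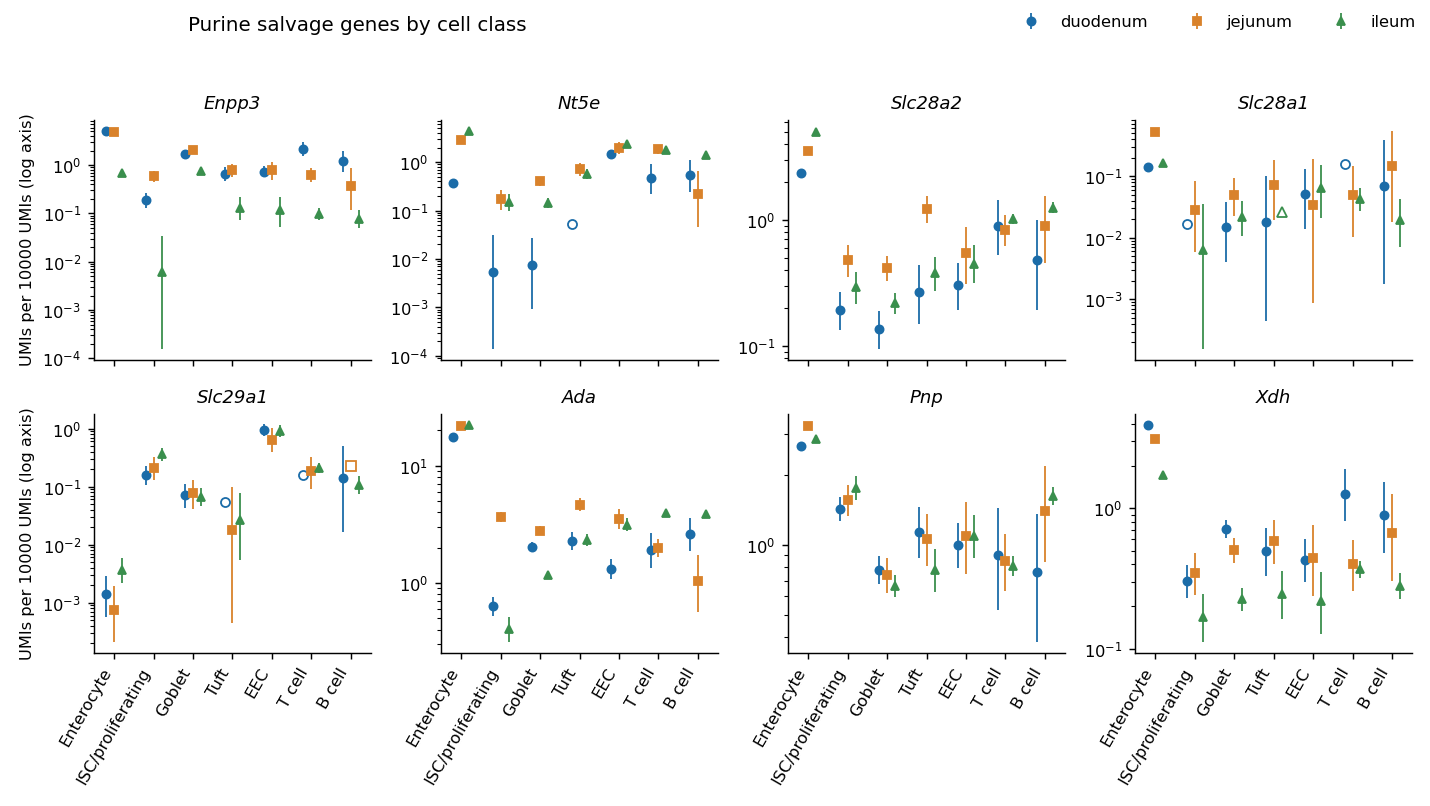
UMIs per 10000 UMIs (log axis, a separate range in each panel) of the 8 genes in 7 cell classes, with 1 symbol per library and exact 95% Poisson intervals. Open symbols stand for 0 UMIs, drawn at the level of 3 UMIs. Ada, Slc28a2, Pnp and Xdh are highest in enterocytes of each library, and Slc29a1 is lower there than in EECs, ISC/proliferating and goblet cells. Within the duodenum, Nt5e of EECs, T cells and B cells lies above enterocytes, in T cells and B cells on few UMIs.

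RNA of enterocytes is also found in the other classes, which bears on every level below. The 12 enterocyte markers summed stood, relative to enterocytes of the same library, at 28, 9.20 and 16.4% in T cells of the duodenum, the jejunum and the ileum. They stood at 20.4, 13.5 and 13.3% in EECs, 14.7, 11.9 and 10.5% in goblet cells and 11.1, 7.80 and 4.89% in ISC/proliferating cells. A member at such a share of its enterocyte level is therefore not told apart from stray enterocyte RNA.

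Ada was at 17.5, 21.8 and 22.2 UMIs per 10000 UMIs in enterocytes of the duodenum, the jejunum and the ileum, at 1.91, 2.00 and 3.95 in T cells and at 0.633, 3.67 and 0.405 in ISC/proliferating cells. In T cells this was 10.9, 9.16 and 17.8% of the enterocyte level, close to the share of the enterocyte markers in the jejunum and the ileum and below it in the duodenum. The log2 fold change of enterocytes over T cells was 3.88 (SE 0.62, adjusted p = 4.52e-06 by edgeR's quasi-likelihood test), or 2.91 scaled to totals alone. Over the 6 classes it lay between 3.49 for goblet cells and 4.91 for ISC/proliferating cells. The latter came to 6.07 without the jejunum, where these cells held most Ada, and to 4.14 without the ileum.

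Slc28a2 was at 2.36, 3.53 and 4.99 UMIs per 10000 UMIs in enterocytes, and no library of another class in the 6 comparisons passed 1.25. Slc28a1 was at 0.143, 0.522 and 0.165 in enterocytes. In the 6 classes compared it was at most at 0.148, a value of 2 UMIs in B cells of the jejunum. Xdh was at 3.91, 3.14 and 1.73, against at most 1.27 in the 6 classes compared. Outside these comparisons, the 12 dendritic cells of the duodenum held 0.155 of Slc28a1 and 1.79 of Xdh. For Slc28a2, Slc28a1 and Xdh enterocytes were highest of the 7 classes in each library, and their log2 fold changes lay between 2.78 and 5.66 over all 6 contrasts. Each of these 18 calls was kept in all of its alternatives. Slc28a2 of T cells still stood at 38.2, 23.6 and 20.3% of the enterocyte level, above the enterocyte markers in the same cells.

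Pnp, which every cell can use to turn over its own nucleosides, differed less. Enterocytes held 2.69, 3.27 and 2.87 UMIs per 10000 UMIs, ISC/proliferating cells 1.43, 1.56 and 1.77 and B cells 0.760, 1.41 and 1.63. At 47.7 to 61.5% of the enterocyte level, Pnp in ISC/proliferating cells stood well above the share of the enterocyte markers there. Its log2 fold change over ISC/proliferating cells was 1.86 (SE 0.24, adjusted p = 2.63e-07 by edgeR's quasi-likelihood test), or 0.89 scaled to totals alone.

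Nt5e was found in several classes. Enterocytes held 0.367, 2.83 and 4.35 UMIs per 10000 UMIs, EECs 1.44, 1.97 and 2.33 and T cells 0.477, 1.83 and 1.75. EECs thus stood at 393, 69.7 and 53.5% of the enterocyte level and T cells at 130, 64.6 and 40.2%, in each library above the share of the enterocyte markers in the same class. The duodenal T cells, 35 in number, gave only 9 UMIs of Nt5e. B cells held 0.553, 0.222 and 1.40, or 150, 7.83 and 32.2% of the enterocyte level, on 8, 3 and 429 UMIs. CD73 is known as a surface protein of some T cells. Goblet cells, with 0.00754, 0.402 and 0.145, and ISC/proliferating cells, with 0.00551, 0.172 and 0.149, were lower than enterocytes in each library.

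Over EECs the log2 fold change of Nt5e was 0.61 (SE 0.58, adjusted p = 0.412 by edgeR's quasi-likelihood test), and over its alternatives it ranged from -0.32 to 1.71, the latter without the duodenum and past the threshold. Over T cells it was 1.68 (SE 0.60, adjusted p = 0.0173 by edgeR's quasi-likelihood test), a call that was lost in 6 of 16 alternatives and that came to 0.72 scaled to totals alone (adjusted p = 0.31 by the same edgeR test), with adjusted p between 0.00149 and 0.391 over all alternatives. Without the jejunum the value over T cells was 1.61 and without the ileum 1.14, neither past the threshold. Over B cells it was 2.23 (SE 0.65, adjusted p = 0.00435 by edgeR's quasi-likelihood test). That call was lost in 3 of 16 alternatives, at 1.32 scaled to totals alone (adjusted p = 0.0848 by the same edgeR test), at 1.31 in DESeq2 and at 1.75 without the jejunum, with a largest adjusted p of 0.273. The enterocyte value itself depends on the zone, since tip cells of the ileum held 15.2 UMIs per 10000 UMIs and bottom cells 0.108.

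Enpp3 of goblet cells came close to enterocytes in the ileum. Goblet cells held 1.71, 2.06 and 0.753 UMIs per 10000 UMIs, against 5.04, 4.74 and 0.696 in enterocytes. That is 34.0, 43.6 and 108% of the enterocyte level, above the 14.7, 11.9 and 10.5% of the enterocyte markers. The log2 fold change of enterocytes over goblet cells was 0.81 (SE 0.46, adjusted p = 0.181 by edgeR's quasi-likelihood test). It passed the threshold in 2 of 16 alternatives, among them that without the ileum, at 1.35, and its adjusted p ranged from 0.0299 to 0.689. In the other 5 contrasts Enpp3 was higher in enterocytes by 3.26 to 4.86.

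Slc29a1 showed the reverse of the other members. In EECs it was at 0.937, 0.647 and 0.901 UMIs per 10000 UMIs, in ISC/proliferating cells at 0.160, 0.210 and 0.361 and in goblet cells at 0.0717, 0.0760 and 0.0673. Enterocytes held 0.00141, 0.000760 and 0.00372, on 7, 4 and 17 UMIs. Each of these 3 classes stood above enterocytes in every library. T cells of the duodenum and B cells of the jejunum gave 0 UMIs. An annotated antisense gene, Gm17080, overlaps Slc29a1. The log2 fold change of enterocytes was -7.77 over EECs (SE 0.45, adjusted p = 2.59e-13 by edgeR's quasi-likelihood test), -5.92 over ISC/proliferating cells, -5.34 over T cells, -5.03 over goblet cells and -4.48 over B cells. Over tuft cells, which gave 0, 1 and 3 UMIs, it was -2.31 (SE 0.98, adjusted p = 0.0575 by edgeR's quasi-likelihood test), past the threshold in 8 of 16 alternatives with adjusted p between 0.00208 and 0.399.

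Segments were compared within enterocytes, with 1 library each and hence without a test. Intervals cover counting error only, and differences between segments cannot be told apart from differences between libraries. A member was counted where its level differed by at least 2-fold. Between duodenum and jejunum, 2 of 7 members were lower in the duodenum (Nt5e and Slc28a1), where 4.33% of 6852 genes were, and 0 higher (5.97%). Between duodenum and ileum, Xdh and Enpp3 were higher in the duodenum and Nt5e and Slc28a2 lower (9.43 and 10.6% of 7161 genes). Between jejunum and ileum, Slc28a1 and Enpp3 were higher in the jejunum and 0 members lower (4.17 and 8.41% of 6813 genes).

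**Figure D4:**
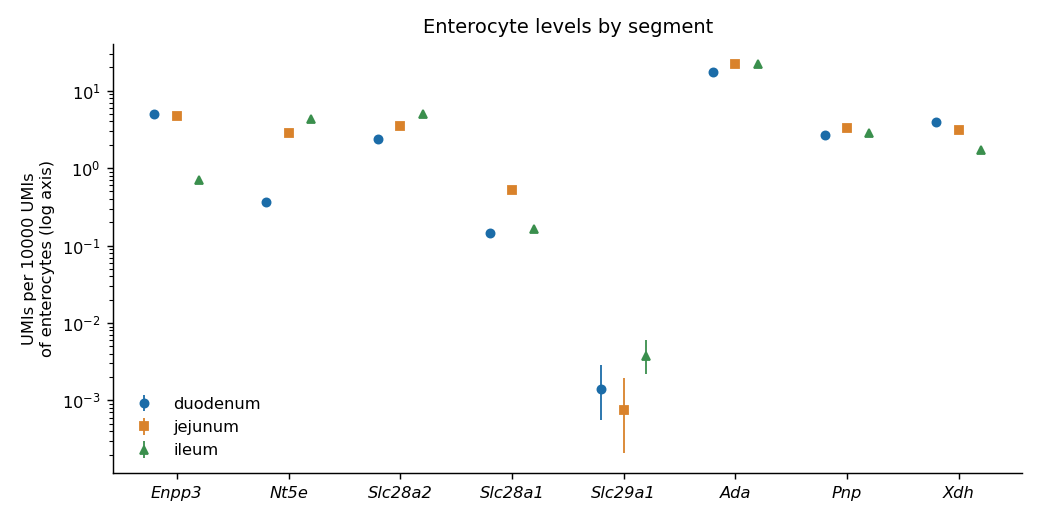
UMIs per 10000 UMIs of all enterocytes of a library (log axis) for the 8 genes, with exact 95% Poisson intervals for counting error, most of them smaller than the symbols. Nt5e is lowest in the duodenum and Enpp3 in the ileum, while the 3 symbols of Ada and of Pnp lie close together.

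Enpp3 and Nt5e, the ectoenzymes, ran in opposite directions along the intestine. Enpp3 stood 7.24 times higher in the duodenum than in the ileum and 6.81 times higher in the jejunum than in the ileum, with log2 ratios of 2.86 (95% interval 2.80 to 2.91) and 2.77 (2.71 to 2.82). Among cells with at most 20% mitochondrial UMIs these folds were 5.23 and 3.69. Nt5e stood 11.8 times higher in the ileum than in the duodenum and 1.54 times higher in the ileum than in the jejunum. Within single zones Enpp3 was higher in the duodenum than in the ileum in 5 of 5, by a log2 ratio of 2.46 to 5.22, and Nt5e lower in 5 of 5, by -5.57 to -2.72.

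Of the carriers, Slc28a1 had its highest level in the jejunum, 3.64 times its level in the duodenum and 3.15 times that in the ileum, and it was above the ileum in 5 of 5 zones. Slc28a2 rose along the intestine, with 2.12 times as much in the ileum as in the duodenum. That ratio fell under 2-fold with mitochondrial UMIs left out of the total, with zones weighted equally and with cells thinned to 2000 UMIs.

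Over whole libraries Ada and Pnp differed by at most 1.27-fold and 1.22-fold between any pair of segments, and by 1.43-fold and 1.38-fold among cells with at most 20% mitochondrial UMIs. Within single zones Ada differed more and in both directions. Its log2 ratio of duodenum to jejunum ran from -1.34 to 0.31 over the 5 zones, and that of duodenum to ileum from -1.14 to 0.34, with the duodenum higher in 2 of 5 zones in both. Xdh stood 2.26 times higher in the duodenum than in the ileum and was above it in 5 of 5 zones, but was within 2-fold among cells with at most 20% mitochondrial UMIs.

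The other purine genes on a list of 53 moved in both directions along the villus. Of the 37 tested, 9 were higher at the tip and 17 lower, where 33.1 and 37.4% of all tested genes were, with a median of -0.66 on the log2 scale. Extracellular enzymes were higher in 3 of 4 and lower in 0, de novo synthesis genes higher in 0 of 5 and lower in 3, and genes of salvage and interconversion higher in 4 and lower in 12 of 22. Of 4 transport genes 1 was higher and 2 lower, and of 2 adenosine receptors 1 was higher. Scaled to totals alone, Abcg2 turned from 0.52 to -0.01 and Gda fell from 0.79 to 0.26, neither past the threshold there.

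**Figure D5:**
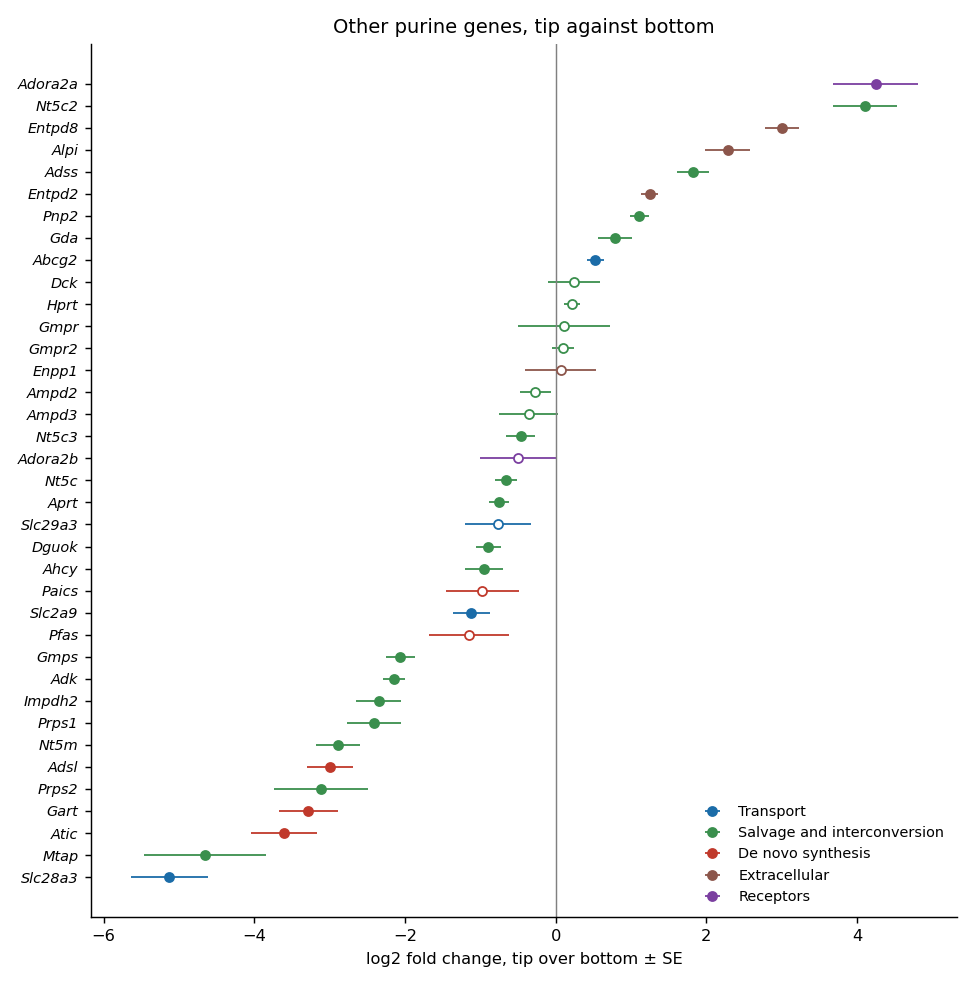
Log2 fold change of tip over bottom zone, with its SE, for 37 other purine genes, coloured by role. Filled symbols passed the threshold in edgeR's quasi-likelihood test and open ones did not. Most green (salvage and interconversion) and red (de novo synthesis) symbols lie left of 0, and Entpd8, Nt5c2 and Adora2a lie farthest to the right.

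Among those higher at the tip, Adora2a, an adenosine receptor, rose by a log2 fold change of 4.25 (SE 0.56), Nt5c2, a cytosolic 5′-nucleotidase that acts on IMP and GMP, by 4.10 (0.42) and Entpd8, an ectonucleotidase that removes phosphates from ATP and ADP, by 3.0 (0.22). Adora2a was rare, with 6, 56 and 8 UMIs in the tip zones of the duodenum, the jejunum and the ileum. Entpd8 went from 0.748 to 3.21 UMIs per 10000 UMIs in the duodenum, from 0.713 to 4.5 in the jejunum and from 0.407 to 2.80 in the ileum. It rose at every step in each library, as Enpp3 and Nt5e did.

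Of the genes lower at the tip, Slc28a3, the third carrier of the SLC28 family, fell by 5.13 (SE 0.52) on the log2 scale. Its level was 0.146, 0.215 and 0.189 UMIs per 10000 UMIs in the bottom zones of the duodenum, the jejunum and the ileum and 0.00425, 0.00328 and 0.00347 in the tip zones. Each tip level rests on 3 UMIs. The course was opposite to that of Slc28a2 in every library. Mtap, which salvages adenine from methylthioadenosine, fell by 4.65 (0.81), Nt5m, a mitochondrial nucleotidase, by 2.89 (0.29), and Impdh2, which commits IMP to guanine nucleotides, by 2.35 (0.30). Atic, Gart and Adsl of de novo synthesis fell by 3.61, 3.28 and 3.0, and Prps2 and Prps1, which make phosphoribosyl pyrophosphate, by 3.11 and 2.41. The largest adjusted p among these 12 genes was 6.51e-04 by edgeR's quasi-likelihood test.

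Between classes, between 5 and 19 of 48 tested genes of the list were lower in enterocytes and between 13 and 18 higher. Of all tested genes, between 12 and 25.4% were lower and between 24.2 and 35.6% higher, so the share of higher genes on the list was near that of all genes. The genes with the largest excess in enterocytes were Adora2b and Gda, guanine deaminase, over ISC/proliferating cells (5.16 and 5.03), Alpi, intestinal alkaline phosphatase, and Pnp2 over goblet cells (3.49 and 3.14), Slc28a3 and Gda over tuft cells (4.44 and 4.06), Slc28a3 and Alpi over EECs (4.37 and 4.25), Adora2b and Entpd2 over T cells (4.4 and 4.11) and Adora2b and Slc28a3 over B cells (6.69 and 5.14). The value of Adora2b over B cells had an SE of 2.45, so its size is uncertain. Ppat, the first enzyme of de novo synthesis, was lower in enterocytes than in ISC/proliferating cells by -6.34 and than in T cells by -6.51, and Paics than in ISC/proliferating cells by -5.60. Ppat gave at most 5 UMIs in a tip or bottom enterocyte zone, in the ileal bottom zone, so the size of its folds is uncertain as well. Entpd1, the ectonucleotidase CD39, was lower than in T cells by -7.20, with 94 UMIs in ileal T cells and 6 in ileal enterocytes.

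Other classes exceeded enterocytes in single purine genes. EECs did so in Alpl and Entpd3 (-9.34 and -8.06 for enterocytes over EECs), tuft cells in Uox and Adora1 (-8.43 and -7.95) and goblet cells in Uox and Impdh1 (-4.67 and -3.68). B cells exceeded them in Adssl1 and Nt5c3b (-6.39 and -5.68). Each of these passed the threshold by edgeR's quasi-likelihood test, with the largest adjusted p, 0.0219, for Adora2b over B cells. In tip and bottom enterocyte zones, Alpl and Uox gave 0 UMIs in each library. Entpd3 gave 1 UMI in the ileal tip zone, Adora1 1 in the jejunal bottom zone, and both 0 in the rest. Adssl1 gave 1 in the jejunal and 1 in the ileal bottom zone and 0 in the rest. Impdh1 and Nt5c3b reached at most 9 and 15 UMIs, in the ileal bottom zone. The folds of Alpl, Entpd3, Uox, Adora1 and Adssl1 thus rest on enterocyte counts at or near 0, and their size is uncertain.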

How the data were processed

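Count tables of 3 libraries were used as deposited. The authors made them with Cell Ranger 3.0.2 on GRCm38 (mm10), and the values are raw UMI counts per gene and barcode, with no normalization. After the limits stated by the study, a barcode was kept if it had from 800 up to 50000 UMIs, from 200 up to 6000 genes and a mitochondrial share of no more than 40%. Cells were clustered with Seurat 5.3.0 (2000 variable genes without the purine genes, 30 principal components, resolution 0.8), and clusters were named from marker lists. Scrublet in scanpy 1.11.5 called 0, 0 and 146 doublets in the duodenum, the jejunum and the ileum. It did not work in the first 2, so doublets were kept, and their removal was an alternative. Levels are UMIs per 10000 UMIs of summed cells, with exact 95% Poisson intervals. Shares of cells have exact binomial (Clopper-Pearson) intervals. Intervals and limits for a count of 0 (3 UMIs) cover counting error only.

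UMIs summed per library and zone, or per library and class (at least 10 cells), were tested with edgeR 4.0.16 in R 4.3.3 by the quasi-likelihood test, with filterByExpr, TMM and the library as a block, and p-values were adjusted by Benjamini-Hochberg over all tested genes at a threshold of 0.05. The fits were tested on simulated data, with 200 genes changed 2-fold. Of these, 59.5% were called for tip against bottom (11208 genes) and between 2.5 and 11.5% for the class contrasts (12591 genes), so a class difference of this size is mostly missed. DESeq2 1.42.0, other scalings, filters, clusterings and zone scores, thinning and leaving out each library were alternatives. Leaving out clusters led by haemoglobin or pancreatic enzyme genes, and a zone score without Pkib and Egfr, were chosen after seeing the data. Segments have 1 library each and were not tested. A gene counted there with at least 0.1 UMIs per 10000 UMIs in either segment.

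The text names the 8 members, landmark, check and marker genes, the 12 other purine genes with the largest change past the threshold along the villus, and those furthest in each direction in each class contrast. Pnp2, Abcg2 and Gda were named along the villus after their values were seen. The members and lists were chosen with earlier results of these data known.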

Additional observations from a re-analysis of the deposited data

Results flagged for a closer look

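Slc28a1 moved in opposite directions along the villus in different segments. The log2 ratio of tip to bottom level was 0.96 in the duodenum and -0.94 in the jejunum, a difference of 1.90, which was not tested because each segment has 1 library.

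Barcodes over the limit of 40% mitochondrial UMIs entered no comparison, and all members had UMIs in them. They were not assigned to a cell class, so their makeup is not known. The duodenum gave 5068 of them, the jejunum 3546 and the ileum 1222. Summed over the 3 libraries, they held 8.32 UMIs of Ada per 10000 UMIs, 0.558 of Nt5e, 1.72 of Slc28a2, 2.80 of Enpp3, 3.18 of Xdh, 1.1 of Pnp, 0.246 of Slc28a1 and 0.00449 of Slc29a1. Since libraries enter these sums in other proportions than kept enterocytes, only levels within a library are set side by side. Ada stood at 8.88, 9.16 and 1.45 in this order, against 17.5, 21.8 and 22.2 in kept enterocytes. Slc28a2 stood at 2.03, 1.53 and 0.626, against 2.36, 3.53 and 4.99, and Xdh at 3.67, 3.02 and 0.911, against 3.91, 3.14 and 1.73. Slc29a1, on 10, 6 and 15 UMIs, was the 1 member with a higher level than kept enterocytes in the 3 libraries. Over 40% of the UMIs of each such barcode are mitochondrial, which lowers the level of every other gene, and no test was made.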

How the results depend on the processing

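Along the villus, the calls of Ada, Nt5e, Slc28a2, Enpp3, Xdh and Pnp held in all 21 alternatives. Slc28a1 turned to -0.13 scaled to totals alone, and without 1 library it ranged from -0.00995 (without the duodenum) to 0.88. Without the library as a block, 5 other purine genes were higher at the tip in place of 9, and 2468 of all genes were higher and 2681 lower in place of 3712 and 4188. Scaled to totals alone 2199 were higher. With cells thinned to 2000 UMIs, 10 other purine genes were lower in place of 17, and 2415 of all genes. The cause was not tested, beyond the fewer UMIs that thinning leaves.

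Between classes, Nt5e over EECs turned to -0.32 scaled to totals alone and to -0.24 in DESeq2, and without 1 library it ranged from -0.31 (without the ileum) to 1.71 (without the duodenum). Slc29a1 passed the threshold over tuft cells, so that 1 member was lower in place of 0, with DESeq2's size factors, totals alone, DESeq2, no filter, mitochondrial genes left out, doublets removed and clusters led by haemoglobin or pancreatic genes left out. Without 1 library this count ranged from 0 to 1, and it was 1 without the duodenum. Besides Ada over ISC/proliferating cells, folds that moved by over 1.5 times without 1 library, with their calls kept, were those of Slc28a1 (6.42) and Enpp3 (5.90) over ISC/proliferating cells and of Slc28a1 over tuft cells (5.26) and EECs (2.29), each without the jejunum, of Slc29a1 over goblet cells (-5.89) and EECs (-8.67) without the ileum, of Enpp3 over T cells without the duodenum (3.90), and, without the ileum and without the jejunum, of Nt5e over goblet cells (3.14 and 4.74) and Slc28a2 over tuft cells (2.74 and 4.12). Of the counts of all genes between classes, 26 moved by over 1.5 times and 166 did not. Between duodenum and ileum, 1 member was higher in place of 2 at up to 20% mitochondrial UMIs, and 1 lower in place of 2 with mitochondrial UMIs out of the total, zones weighted equally or cells thinned.

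Tests along the villus and between classes compared groups within each library, through the library as a block. No paired analysis was possible between segments because each has 1 library. Depth limits Slc29a1 in enterocytes and Nt5e at the bottom of the duodenum.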
